A study of Mus musculus with 6 samples.

Results

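The late state after deletion of Fitm2 was described from 1 pooled array of KO small intestine and 1 pooled array of L/L small intestine, both of day 5 after tamoxifen. They are 2 of the 6 arrays of the series, and the other 4 hold the same genotypes on days 2 and 3. L/L mice are the controls, with a notation the labels do not spell out and that usually stands for loxP-flanked alleles. KO mice are ROSA26CreERT2 L/L, so they add a Cre recombinase that tamoxifen activates and that is driven from a locus active in nearly all cell types. This design does not restrict deletion to the epithelium, and deletion by cell type was not measured. Since the controls lacked Cre, effects of active Cre and of the loss of Fitm2 cannot be told apart. Both genotypes received tamoxifen into the peritoneum on each of days 1, 2 and 3, at 100 µg for every g of weight. Each array held RNA of the whole flushed small intestine, from 8 L/L mice and 7 KO mice at day 5 and from 6 or 7 mice per genotype on the earlier days. The age and sex of the mice are not given in the labels. With 1 array per group the day 5 difference has no replicate and no test. It was read against the differences between the 3 L/L arrays, which pooled 6, 6 and 8 mice of days 2, 3 and 5. The number of tamoxifen doses that preceded death on the 2 earlier days is not given. Differences between L/L arrays may therefore include a difference in dose as well as in day.

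Fitm2 encodes a membrane protein of the endoplasmic reticulum that takes part in the budding of lipid droplets, the stores in which cells keep neutral fat. Enterocytes of the small intestine take up dietary fat, rebuild triglyceride from it and either store it in droplets or export it as chylomicrons. The epithelium renews itself within days from stem cells at the crypt base, which also give rise to Paneth, goblet, enteroendocrine and tuft cells.

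After dim genes were left out, 13042 of 18193 named genes were compared, each by its brightest probe set. Intensities are given as L/L and then KO, in the order of days 2, 3 and 5, and differences are KO minus L/L on the log2 scale. The labelled tissue carried its markers: Vil1, an actin-bundling protein of the brush border, read 14376 in L/L and 13123 in KO at day 5, and Fabp2, the intestinal fatty acid binding protein, read 27464 and 27628. The KO array of day 5 stood apart from the other 5, with correlations of log2 intensity from 0.9776 to 0.9873, against 0.9904 to 0.9938 between L/L arrays. Pools also differed in a sex-linked transcript, since Xist read 3052 in L/L and 1398 in KO at day 5, and the part of this in the other differences was not tested.

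At day 5, 167 genes were at least 2-fold higher in KO, which is 1.28% of the genes compared, and 115 were at least 2-fold lower, which is 0.882%. Together these 282 genes make 2.16%. Between L/L arrays, day 3 against day 2 had 16 genes higher (0.123%) and 10 lower (0.0767%), or 26 in all (0.199%). Day 5 against day 2 of L/L had 26 higher (0.199%) and 28 lower (0.215%), or 54 in all (0.414%). Day 5 against day 3 of L/L had 6 higher (0.046%) and 15 lower (0.115%), or 21 in all (0.161%). KO and L/L were that far apart on day 2 in 12 genes higher (0.092%) and 4 lower (0.0307%), 16 in all (0.123%), and on day 3 in 24 higher (0.184%) and 12 lower (0.092%), 36 in all (0.276%). The day 5 pair held more genes past 2-fold than any of these. The median absolute difference over all genes was 0.161 at day 5, against 0.119 to 0.135 between L/L arrays, and the median signed difference was 0.02.

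**Figure D1:**
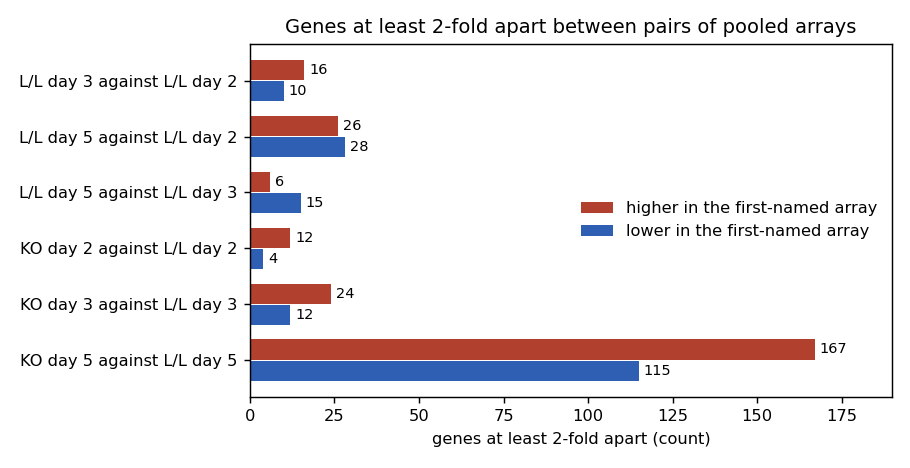
Number of genes at least 2-fold apart, of 13042, for 6 pairs of pooled arrays, with 1 bar for genes higher and 1 for genes lower in the first-named array. The bottom pair, KO against L/L at day 5, has 167 and 115 genes, and the 3 pairs of L/L arrays at the top have 6 to 28 per bar.

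Of the 167 higher genes, 163 also lay above all 3 L/L arrays, where 33.3% of all genes did. By at least 2-fold 79 of them did, which is 0.606% of all genes. Of the 115 lower genes, 114 lay below all 3 L/L arrays, where 29.9% of all genes did. By at least 2-fold 76 of them did, or 0.583% of all genes. These genes were picked by their distance from the L/L array of day 5, so their place beyond that array was set in advance. In 9 of the higher genes the L/L array of day 5 was itself at least 2-fold below both other L/L arrays, among them Defa31, Saa3, Hp and Pla2g2a. A difference of 4-fold or more was reached by 14 genes in the higher and 12 in the lower direction.

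The targeted gene was read first. Fitm2 gave 193, 224 and 211 in L/L against 123, 127 and 120 in KO, so that every KO array lay below every L/L array and the day 5 difference was -0.82. Its paralogue Fitm1, known from skeletal muscle and heart, gave 159 in L/L and 162 in KO at day 5. The probe set for Esr1, the estrogen receptor from which the ligand-binding part of CreERT2 is taken, read 56.1, 56.1 and 39.8 in L/L against 368, 465 and 355 in KO, a day 5 difference of 3.16. A second Esr1 probe set differed by 0.34. Gt(ROSA)26Sor, a noncoding RNA made at the site of the Cre insertion, read 442, 572 and 511 in L/L against 204, 168 and 183 in KO. Fitm2, the brighter Esr1 probe set and Gt(ROSA)26Sor each separated the genotypes on all 3 days. How large a share of all genes separates the genotypes in this way was not counted, here or below.

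Genes of the p53 response were higher in KO at day 5. p53 is a transcription factor that DNA damage and other stress activate, and its targets halt the cell cycle, repair DNA or start apoptosis. Of 34 measured targets 30 were higher, 9 by at least 2-fold and none lower by that much. The median difference was 0.47, beside 0.02 over all genes and at most 0.03 in size between L/L arrays. Over all genes 54% were higher and 45.9% lower, so a count of higher members is read against that share.

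Psrc1, a microtubule-associated target of p53, read 73.3, 62.7 and 74.2 in L/L against 134, 307 and 525 in KO, a day 5 difference of 2.82. Ccng1, which encodes cyclin G1, read 980, 961 and 910 in L/L against 1800, 2377 and 3548 in KO, a difference of 1.96. In both genes each KO array lay above every L/L array, and the day 5 array was the highest. The same held for Phlda3, a repressor of Akt signalling (2.21), for Zmat3, an RNA-binding zinc finger protein (1.89), and for Trp53inp1, which promotes p53-driven cell death (1.58). The share of all genes that separate so was not counted.

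By role, the 10 genes of cell cycle arrest had a median difference of 0.90, the 9 of apoptosis 0.59 and the 10 of repair or metabolism 0.25. Cdkn1a, the cyclin-dependent kinase inhibitor p21, read 2416 in L/L and 4274 in KO at day 5, short of 2-fold at 0.82. Mdm2, the ligase that degrades p53, differed by 0.36 in its brightest probe set and by 1.08 in its other one. Sesn1, a stress-induced regulator of growth signalling, ran the other way at -0.76. RNA of whole tissue was measured, so here and below fewer cells of a type and less RNA per cell cannot be told apart.

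Interferon-stimulated genes were higher in KO on all 3 days. Interferons induce these genes through STAT and IRF factors that bind a response element in their promoters. Of 44 measured genes 42 were higher at day 5, 8 of them by at least 2-fold, and 38 lay above all 3 L/L arrays, where 33.3% of all genes did. The median was 0.52, 0.51 and 0.62 on days 2, 3 and 5, and L/L arrays differed from each other by up to 0.26.

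Promoter sequence is shown for 3 of the genes at least 2-fold higher, because the core of the interferon response element can be read in them. Capitals mark each match to that core, which is GAAA, any 2 bases and GAAA again, or on the other strand TTTC, any 2 bases and TTTC, and each stretch runs from 170 to 51 bases before the annotated start, 5′ to 3′ on the gene's strand. Sequences are from RefSeq on build GRCm38.p6, at chr19:34640719-34640838 on the plus strand for Ifit1, chr19:34583359-34583478 on the plus strand for Ifit3 and chr12:26456503-26456622 on the minus strand for Rsad2.
Ifit1: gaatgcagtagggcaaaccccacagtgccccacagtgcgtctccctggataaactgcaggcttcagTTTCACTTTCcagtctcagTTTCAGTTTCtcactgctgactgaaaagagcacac
Ifit3: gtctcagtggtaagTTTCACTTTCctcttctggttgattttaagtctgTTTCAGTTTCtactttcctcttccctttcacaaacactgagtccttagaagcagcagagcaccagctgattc
Rsad2: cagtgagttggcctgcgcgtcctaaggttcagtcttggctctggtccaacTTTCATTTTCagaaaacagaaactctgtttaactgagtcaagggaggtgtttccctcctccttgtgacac

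The matches begin 104 and 85 bases before the start in Ifit1, 156 and 122 in Ifit3 and 120 in Rsad2. In promoter windows of 300 bases, searched on both strands, the core was found in 18 of the 31 interferon genes with a sequence (58.06%). The share was 3.993% of all 27025 genes in the promoter table and 3.846% of p53 targets. Among interferon genes the median day 5 difference was 0.59 in the 18 with a match and 0.61 in the 13 without. Of the genes at least 2-fold higher at day 5, 10 of 126 with a sequence held the core (7.937%), and of those lower 4 of 93 (4.301%). A match is a description of these letters and not evidence of binding.

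Ifit1, which binds viral RNA and blocks its translation, read 1178, 1476 and 1704 in L/L against 2743, 3276 and 3739 in KO, a day 5 difference of 1.13. Rsad2, the antiviral enzyme viperin, read 954, 1001 and 1186 in L/L against 1672, 2095 and 2639 in KO, a difference of 1.15. Neither gene overlapped between genotypes, and both were already apart on day 2. The highest member at day 5 was Bst2, the virus tether tetherin, with 302, 436 and 270 in L/L against 461, 629 and 712 in KO (1.40). The nucleic acid sensor Zbp1 differed by 0.50, 0.51 and 1.14 on the 3 days. The 8 GTPases of the interferon-gamma response had a median of 0.40 at day 5, below the 0.66 of day 2.

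Genes of regenerating epithelium and targets of YAP, a growth-promoting factor of the Hippo pathway, differed mainly at day 5. Of 23 measured genes 22 were higher and 9 by at least 2-fold, with a median of 0.75, against 0.08 on day 2 and 0.08 on day 3. Between L/L arrays the list moved by at most 0.13. These genes mark the state that damaged crypts pass through during repair.

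Il1rn, the interleukin-1 receptor antagonist, read 28.9, 29.7 and 21.8 in L/L against 34.7, 45.7 and 255 in KO. Since 4 of these arrays lay below the intensity of 38.9 under which a probe set was called dim, the difference of 3.55 became 2.71 when they were raised to that level. Krt23, an epithelial keratin, read 56.3, 61.5 and 43.2 in L/L against 48.3, 70.0 and 272 in KO, a difference of 2.65. Cd44, the hyaluronan receptor and a Wnt target, read 283, 411 and 412 in L/L against 402, 551 and 1552 in KO (1.92), and both of its other probe sets differed by as much or more. In these 3 genes the KO array of day 5 stood clear of the other 5. For Il1rn that is no separate support, since its mean passed the dim threshold only through that array.

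Anxa1, an annexin with anti-inflammatory activity, read 457, 457 and 425 in L/L against 440, 447 and 1223 in KO (1.52). The 7 YAP targets had a median of 0.73, with Ajuba, a LIM protein that restrains Hippo signalling, at 1.92 and Ccn1, a matrix protein, at 1.04. For Ajuba the L/L array of day 5 was the lowest of the 3, at 42.2 after 92.5 and 63.5, and KO read 159. Sprr1a, a cornified-envelope protein, was the exception at -0.77, within the range of the L/L arrays.

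**Figure D2:**
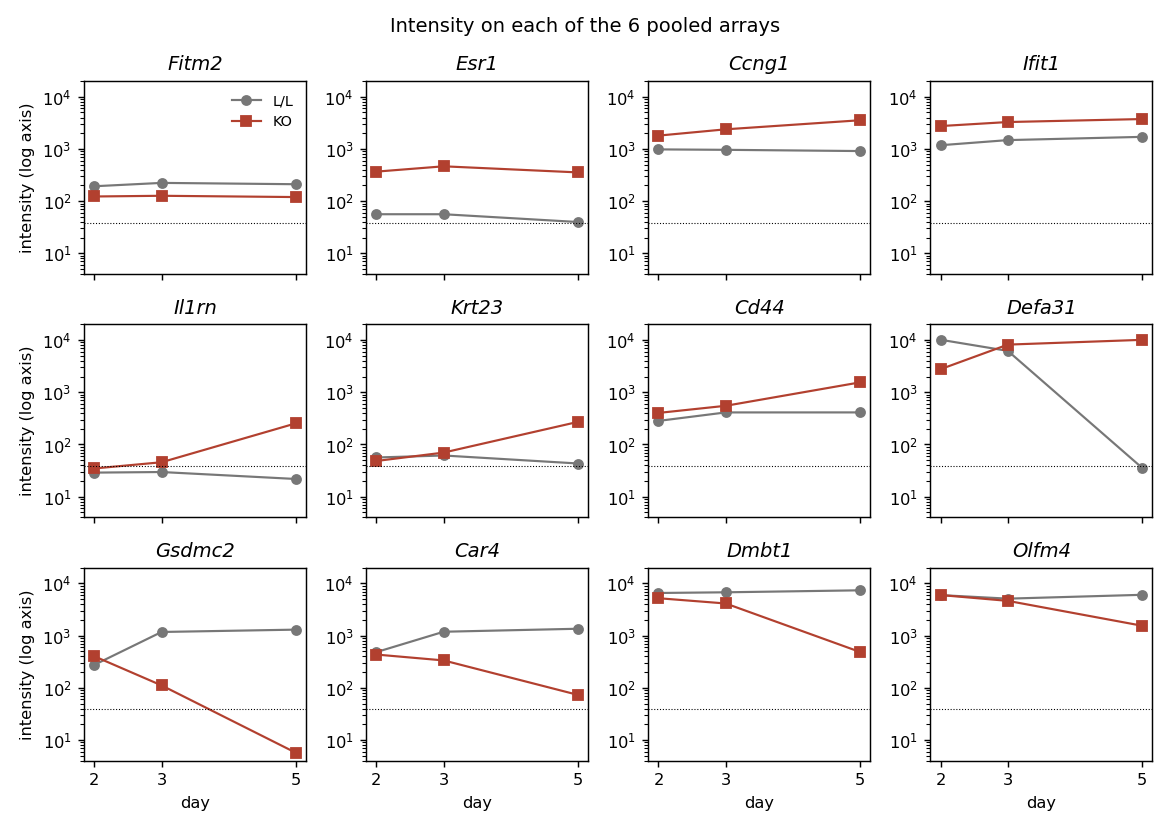
Intensity of 12 genes on the 6 pooled arrays (log axis) against day, L/L in grey circles and KO in red squares, with the dotted line at the dim threshold of 38.9. Fitm2, Esr1 and Ifit1 were apart on all days, Il1rn, Krt23, Cd44, Dmbt1 and Olfm4 mainly at day 5, and for Defa31 it is the L/L array of day 5 that lies low.

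Other genes among the 20 highest differences did not share a common list. Ly6d, a membrane-anchored surface protein, read 69.9, 63.7 and 75.8 in L/L against 80.2, 82.7 and 407 in KO (2.42). Mboat1, a lysophospholipid acyltransferase, differed by 2.07 and Sptssb, a small subunit of the enzyme that starts sphingolipid synthesis, by 2.22. Pmm1, a phosphomannomutase, differed by 1.98. Arg1, arginase, read 137 on the KO array of day 5 and at most 43.0 elsewhere, with a difference of 2.15, or 1.81 with dim arrays raised. Like Il1rn, Arg1 passed the dim threshold only through the KO array of day 5. Egr1, an immediate early transcription factor, read 410, 530 and 422 in L/L against 770, 1035 and 1767 in KO (2.07). Its list of 20 immediate early genes had a median of 0.32, with 18 higher and 2 by at least 2-fold.

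Stem cell and proliferation genes did not move as one. Olfm4, a secreted marker of crypt base cells, read 5977, 5115 and 6061 in L/L against 5992, 4639 and 1545 in KO, a day 5 difference of -1.97. Myb, a factor of progenitor cells, was lower too (-1.22), while Lgr5, the receptor that marks cycling stem cells, differed by -0.35. Higher by at least 2-fold were Sox9 (1.43), a factor of crypt and Paneth cells, Rnf43 (1.23), a Wnt feedback ligase, and Hopx (1.12). Over the 20 genes of this list the median was 0.20.

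All 26 mitosis genes were lower in KO at day 5, with a median of -0.40, and 24 of them lay below all 3 L/L arrays, where 29.9% of all genes did. Only Nusap1, a spindle protein (-1.15), and Ccnb2, cyclin B2 (-1.07), reached 2-fold. L/L arrays differed from each other in this list by up to 0.25. Mki67, the proliferation marker, read 894, 1301 and 1296 in L/L against 916, 895 and 658 in KO. Genes of DNA replication had a median of -0.06 over 29, or -0.14 against L/L of days 2 and 3, with Tk1, thymidine kinase, at -1.10. Of 22 ribosome biogenesis factors 21 were higher, with a median of 0.36, none by 2-fold, and with up to 0.22 between L/L arrays. Myc, which drives that programme, read 413 in L/L and 681 in KO at day 5.

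Secretory cells differed by lineage. Of 9 measured Paneth cell genes 8 were higher at day 5 and 5 by at least 2-fold, with a median of 1.07, but 14 of the 23 genes on the list were not among those compared. Pnliprp2, a pancreatic-type lipase, read 1165, 1173 and 1132 in L/L against 1800, 1683 and 3877 in KO (1.77). Itln1, a lectin, read 3042, 2639 and 2567 in L/L against 3983, 5023 and 5729 in KO (1.16). Both genes separated the genotypes on all 3 days. Lyz1, Paneth cell lysozyme, differed by 0.59.

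The largest single difference, 8.16 for the Paneth defensin Defa31, rested on the control. Defa31 read 10152, 6213 and 35.3 in L/L against 2772, 8196 and 10116 in KO, so that the KO array of day 5 lay within the L/L range and the L/L array of day 5 lay far below all others. In Pla2g2a, a secreted phospholipase of Paneth cells, the L/L array of day 5 was also the lowest, with 1397, 478 and 109 in L/L against 569, 1382 and 230 in KO. Its difference was 1.07 against L/L of day 5 and -1.83 against the mean of the other L/L arrays.

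Of 26 enteroendocrine genes 23 were higher, 4 by at least 2-fold. These were Gcg (1.12) and Gip (1.08), which encode the precursors of glucagon-like peptides and the incretin GIP, and the granins Chga (1.02) and Chgb (1.02). The list's median was 0.42, but the L/L array of day 5 lay 0.39 below that of day 2. Gip read 2409, 2037 and 1396 in L/L and 2943 in KO at day 5. Goblet cell genes had a median of 0.09 over 15 and tuft cell genes 0.03 over 14, with none at 2-fold in either list. Against L/L of days 2 and 3 these medians were 0.023 and -0.035.

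Genes of mucosal defence were among the lowest at day 5. Of 17 measured genes 7 were at least 2-fold lower and 4 at least 2-fold higher. Dmbt1, a scavenger receptor glycoprotein of the mucosa, read 6568, 6767 and 7388 in L/L against 5212, 4131 and 485 in KO, a difference of -3.93. Lectins of the Reg family, which epithelial cells secrete against bacteria and after injury, were lower for 4 of 6 by at least 2-fold. Reg3g read 13432, 11548 and 18000 in L/L against 7771, 11717 and 4671 in KO (-1.95). Differences were -2.02 for Reg3a, -2.01 for Reg1 and -1.55 for Reg3b, and in all 4 the KO array of day 5 was the lowest of the 6.

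Reg4 ran the other way, with 605 in L/L and 1762 in KO at day 5 (1.54). Pigr, the receptor that carries IgA into the lumen, differed by -1.04 and Nox4, an NADPH oxidase, by -1.90. With dim arrays raised the Nox4 difference was -1.665, and its other probe set differed by -1.29. The acute phase protein Saa3 read 477, 406 and 156 in L/L against 443, 680 and 1332 in KO (3.09). Haptoglobin, Hp, differed by 1.96, but its 240 in KO lay only 0.05 beyond the highest L/L array, since L/L read 231 on day 2 and 61.6 on day 5. Inflammatory cytokines and chemokines had a median of 0.32 over 30 genes, with Il1rn the single one 2-fold higher. Il1rn was also counted among the regeneration genes, and it was kept only through its KO array of day 5. Ccl28, a mucosal chemokine, was 2-fold lower in its brightest probe set (-1.45), and its 2 other probe sets differed by -0.01 and 0.33.

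Among cell death genes the lowest was Gsdmc2, a member of the pore-forming gasdermin family. It read 276, 1176 and 1304 in L/L against 402, 111 and 5.66 in KO, a difference of -7.85, or -5.07 with the dim array raised. L/L itself was over 4-fold higher on days 3 and 5 than on day 2. Other genes of the list lay in both directions. Pycard, the inflammasome adaptor ASC, read 4976, 5494 and 5171 in L/L against 4624, 4046 and 1727 in KO (-1.58). Nlrp6, an inflammasome sensor of the epithelium, differed by -1.04 and Casp1 by -0.79, while Mlkl, which executes necroptosis, differed by 0.86.

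Some genes of absorptive cells were among the lowest at day 5. Car4, a membrane-bound carbonic anhydrase, read 484, 1188 and 1356 in L/L against 434, 335 and 73.0 in KO (-4.21), and its other probe set differed by -3.92. Slc1a1, a glutamate transporter, read 388, 546 and 561 in L/L against 392, 247 and 107 in KO (-2.39). Pla2g4c, a cytosolic phospholipase A2, read 110, 400 and 741 in L/L against 278, 99.2 and 90.9 in KO, so at day 5 it lay 0.28 below the lowest L/L array and 3.03 below that of day 5. Brush border enzymes had a median of -0.03 over 26 genes, or -0.12 against L/L of days 2 and 3. In that list 2 genes were at least 2-fold higher and none lower by that much. They were Ada (1.45), above all 3 L/L arrays, and Akp3 (1.32), within the L/L range. Of 41 nutrient transporters 28 were lower, where 45.9% of all genes were. Below all 3 L/L arrays lay 24 (58.54%), where 29.9% of all genes did. The median of the list was -0.12, or -0.21 against L/L of days 2 and 3. Between L/L arrays this list moved by at most 0.017. The 10 amino acid transporters, to which Slc1a1 belongs, had a median of -0.63 with 8 lower. Medians were -0.22 for sugar and peptide, -0.04 for ion and vitamin and -0.07 for sterol and bile acid transporters.

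Conjugating enzymes and esterases lay at both ends. Ugt2b5, a glucuronosyltransferase, read 639, 693 and 745 in L/L against 636, 416 and 118 in KO (-2.66), and Ugt2b36 differed by -2.01. Ephx1, microsomal epoxide hydrolase and also a p53 target, read 264, 222 and 236 in L/L against 426, 657 and 958 in KO (2.02). Over 42 genes of this list 3 were at least 2-fold higher and 5 lower, with a median of -0.02, or -0.17 against L/L of days 2 and 3. Of 16 genes of retinoid handling 10 were lower, with a median of -0.33, or -0.58 against L/L of days 2 and 3. Rdh7, a retinol dehydrogenase, was the lowest at -1.60. Tfrc, the transferrin receptor, read 1526, 2036 and 2099 in L/L against 1407, 1282 and 811 in KO (-1.37). It was the single gene 2-fold lower among 11 iron and heme genes. Of these 8 were higher, 2 by at least 2-fold, with a median of 0.30, or 0.165 against L/L of days 2 and 3.

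Most genes of mitochondrial energy metabolism were lower at day 5. All 45 measured subunits of oxidative phosphorylation were lower at day 5 and 43 lay below all 3 L/L arrays, with a median of -0.35, a range from -0.71 to -0.06 and thus none at 2-fold. Between L/L arrays the list moved by at most 0.06. The median was -0.01 on day 2 and -0.13 on day 3. By complex it ran from -0.27 for complex IV and ATP synthase to -0.47 for complex III. Ndufs1, a core subunit of complex I, read 1570, 1753 and 1775 in L/L against 1560, 1479 and 1087 in KO.

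Of 16 TCA cycle genes 14 were lower, with a median of -0.46, and the pyruvate dehydrogenase subunits Dlat (-1.01) and Dld (-1.01) reached 2-fold. Of 26 genes of fatty acid oxidation 24 were lower, with a median of -0.37, and Acadm, medium-chain acyl-CoA dehydrogenase, read 2840, 2886 and 3112 in L/L against 2847, 2584 and 1630 in KO. Ppargc1a, a coactivator of mitochondrial genes, differed by -0.83. Of 20 sterol genes 19 were lower, with a median of -0.39, yet the list was higher in L/L of day 5 than of day 2 by 0.22. Against L/L of days 2 and 3 the sterol median was -0.11, and Hmgcs1 and Idi1, enzymes of the mevalonate pathway, lay within the L/L range.

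Genes of fat storage and export are closest to the function of Fitm2. None of 32 genes of triglyceride synthesis and chylomicron assembly reached 2-fold, with a median of 0.09, or -0.022 against L/L of days 2 and 3. Apob, the chylomicron scaffold protein, read 11018, 9826 and 7281 in L/L against 10803, 11169 and 9970 in KO, within the L/L range. Lipid droplet and lipolysis genes had a median of 0.18 over 20, and -0.01 against L/L of days 2 and 3, with 2 genes at least 2-fold lower. Ces1f, a carboxylesterase, read 468, 492 and 550 in L/L against 500, 401 and 226 in KO (-1.29), so that the KO array of day 5 was the lowest. Hsd17b13, a droplet-bound enzyme, was lower in its brightest probe set (-1.28) and not in its other (-0.01). The droplet protein Cidec read 582 in L/L and 891 in KO at day 5, also within the L/L range. Chpt1, which makes phosphatidylcholine, differed by -1.33 and was at least 2-fold lower in all 3 of its other probe sets.

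Markers of cells other than the epithelium differed too. Myeloid markers had a median of 0.70 with 21 of 23 higher, or 0.37 against L/L of days 2 and 3. Their summed intensity was 11134 to 13223 on the L/L arrays, 13339 and 16626 in KO on days 2 and 3, and 19214 in KO at day 5. Lyz2, lysozyme of macrophages, read 1062, 892 and 870 in L/L against 1145, 1316 and 2301 in KO. Fibroblast and matrix genes had a median of 0.53 with 21 of 22 higher, led by Pdgfra at 1.34, and their sum was 20329 to 22815 in L/L and 32137 in KO at day 5. Endothelial markers had a median of 0.48 with 19 of 20 higher, or 0.31 against L/L of days 2 and 3, and sums of 3083 to 3567 in L/L and 4460 in KO at day 5.

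All 16 smooth muscle genes were higher in KO than on all 3 L/L arrays, with a median of 0.23, or 0.60 against L/L of days 2 and 3. L/L arrays differed in this list by up to 0.36, day 5 being the highest. Their sum was 49152 to 62098 in L/L and 71916 in KO at day 5. Adipocyte genes had a median of 0.42 over 11, and 0.04 against L/L of days 2 and 3. T cell genes had a median of -0.14, or -0.26 against those arrays, with 1 of 17 higher. The part of these other cell types in the differences of the epithelial and mitochondrial lists was not tested.

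**Figure D3:**
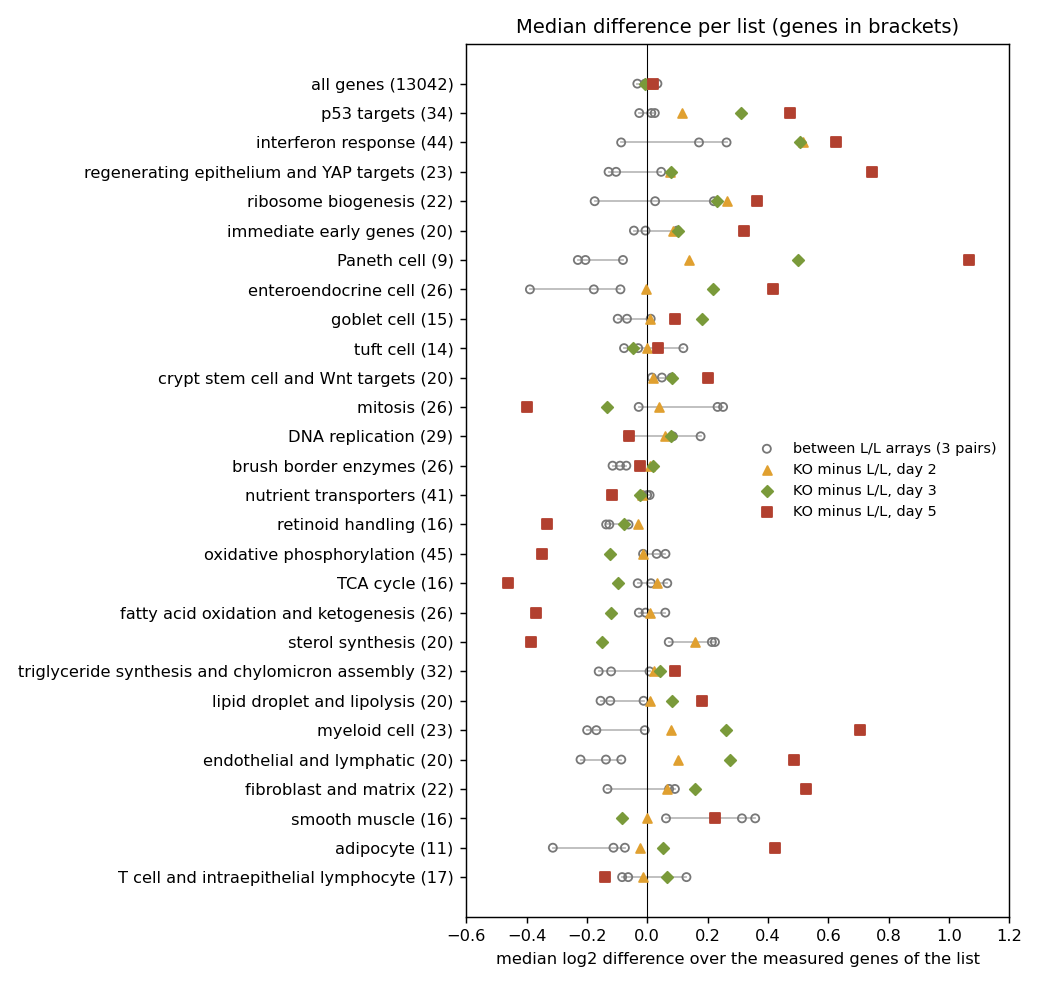
Median log2 difference of 28 sets of genes, KO minus L/L on days 2 (triangles), 3 (diamonds) and 5 (squares), with the 3 differences between L/L arrays as open circles. Day 5 lies beyond the L/L circles for p53 targets (0.47), regeneration genes (0.75), myeloid markers (0.70) and oxidative phosphorylation (-0.35), and among them for tuft cell and smooth muscle genes.

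**Figure D4:**
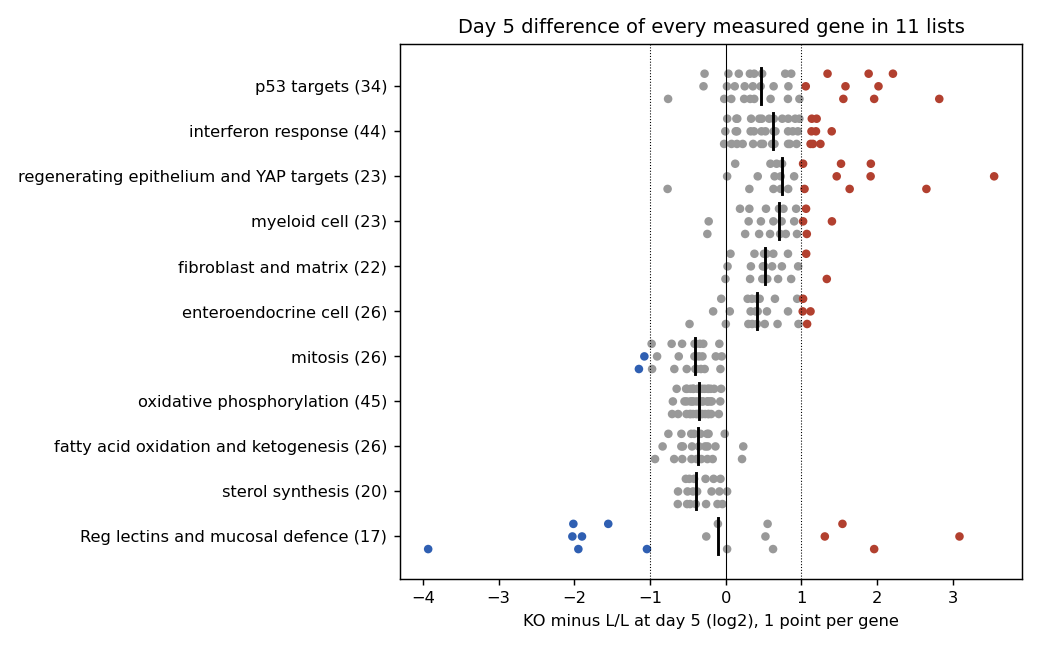
Day 5 difference of each measured gene in 11 lists, 1 point per gene with its row offset for legibility only, red at 2-fold or more higher and blue at 2-fold or more lower, with a black bar at the median. The 45 oxidative phosphorylation genes lie together below 0, and the 17 genes of mucosal defence spread from -3.93 to 3.09.

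The earlier days showed how much of the day 5 state was already present. The 167 genes higher at day 5 had median differences of 0.14, 0.40 and 1.23 on days 2, 3 and 5, and 5 and 17 of them were already 2-fold higher on days 2 and 3. The 115 lower genes had medians of -0.12, -0.37 and -1.22, with 2 and 11 already 2-fold lower. In direction alone, 131 of the 167 were also higher on day 2 and 155 on day 3, where 62.42% and 63% of all genes higher at day 5 were. Of the 115 lower genes 82 were also lower on day 2 and 107 on day 3, where 52.38% and 70.56% of all genes lower at day 5 were. The day 5 comparison does not use the arrays of those days.

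**Figure D5:**
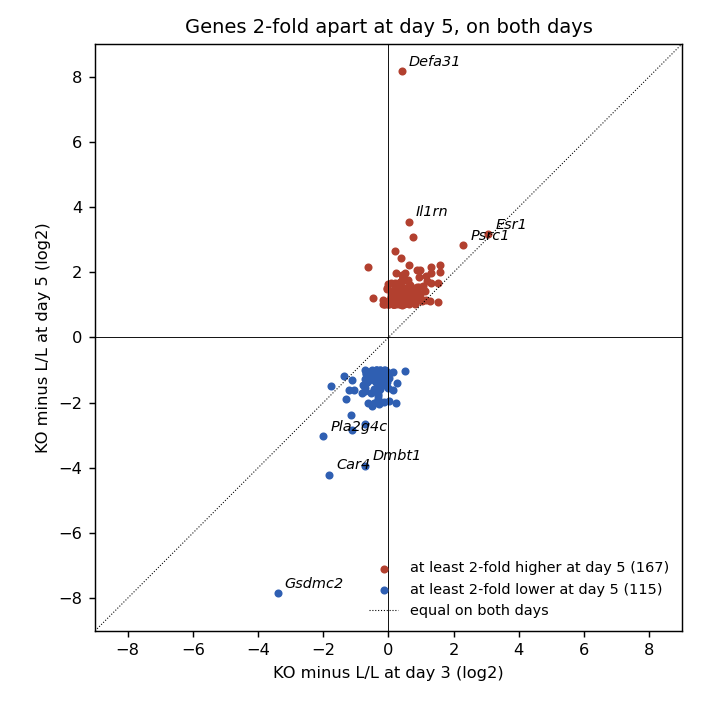
KO minus L/L at day 3 against that at day 5 (both log2) for the 167 genes at least 2-fold higher and the 115 lower at day 5, with the dotted line where both days are equal. Most points lie farther from 0 at day 5 than at day 3, and Esr1 lies near the line.

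Whether the genotype difference at day 5 departed from that of days 2 and 3 was tested over all 6 arrays with limma, which leaves 1 residual degree of freedom per gene. The SE and p rest on how far the genotype difference varied between days 2 and 3, moderated over all genes. They hold no spread between pools or mice at day 5. No gene passed an adjusted p of 0.05 (0% of 13042), and 2186 had an unadjusted p under 0.05. By limma the smallest adjusted p was 0.0534, shared by several genes. Among them were Ly6d (2.14 ± 0.14 SE beyond the earlier days), Dmbt1 (-3.41 ± 0.19), Olfm4 (-1.90 ± 0.13) and Il1rn (3.10 ± 0.18). For Il1rn that is no separate support, since its mean passed the dim threshold only through the KO array of day 5. With other settings of the same test the count of calls ran from 0 to 209.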

How the data were processed

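Each of 6 Affymetrix 3' expression arrays held biotin-labelled small intestine RNA pooled from 6 to 8 mice. The deposited table gives 1 linear intensity per probe set, made by the authors with Partek and RMA per the submitters' processing notes, with versions, parameters and annotation build not given in the sources used here. Of 45101 probe sets 64 were controls, 34945 had 1 gene, 932 several and 9160 none listed. Symbols of 34741 were updated to GRCm38.p6 names. Here log2 was taken with no pseudocount and no further normalization, each of 18193 genes was read by its brightest probe set (highest mean over the arrays), and 13042 genes above the 40th percentile of probe sets (log2 5.28, intensity 38.9) were kept. A table without detection calls allows no other measure of dimness. The number of arrays limits the precision, and spread between mice cannot be seen.

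Day 5 differences were counted at 2-fold and described by list medians over measured genes, beside the same between L/L arrays. The members, gene lists and tests were chosen with earlier results of these data known. The single test used limma 3.58.1 in R 4.3.3 (day as a factor, genotype, and genotype at day 5, two-sided, Benjamini-Hochberg over 13042 genes, 1 residual and 4.12 prior degrees of freedom). On simulated data with 200 genes changed recovery was 0% at a log2 change of 0.5, 43.66% at 1 and 100% at 2, with 6 false among 97 calls. The simulated noise was drawn from the fitted spread, with no genotype difference set on days 2 and 3. It therefore does not show what the test recovers in the real data, where Dmbt1 departed by -3.41 and was not called.

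Named genes were drawn from Fitm2, Fitm1, Esr1 and Gt(ROSA)26Sor, the 20 highest and lowest differences, the 6 largest differences of each list and members needed for its role groups, and the 5 extremes of L/L day 5 against day 2. Not every gene under these rules is described, among them Mbl2 and Akr1c14. Sex-linked genes were passed over, except Xist as a check of the pools. Promoters are RefSeq windows of 250 bases before to 50 after the start. Alternatives were other probe set rules, filters, an offset of 32, centring, cyclic loess, 1.5-fold, other L/L controls and other codings of the test. The L/L mean of days 2 and 3, and raising dim values, were added after the values were seen.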

Additional observations from a re-analysis of the deposited data

Results flagged for a closer look

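In 3 genes the genotypes were at least 2-fold apart in opposite directions on days 2 and 5. Defa31 was lower in KO on day 2 (-1.87) and higher by 8.16 at day 5. Pla2g2a was lower on day 2 (-1.29) and higher by 1.07 at day 5. Pla2g4c was higher on day 2 (1.33) and lower at day 5 (-3.03). The change from day 2 to day 5 itself was not tested. By limma the departure of day 5 from days 2 and 3 had an adjusted p of 0.0677 for Defa31, 0.736 for Pla2g2a and 0.377 for Pla2g4c.

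Probe sets with no single gene name, which the comparisons did not use, also differed at day 5. Of 3977 such probe sets above the threshold 37 were at least 2-fold higher in KO and 27 lower, which is 1.609% together. Between L/L arrays 20, 38 and 15 of them were that far apart.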

How the results depend on the processing

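The 19 lists whose median at day 5 was at least 0.3 in size and beyond every L/L pair kept their direction under all 9 alternatives run for them. A median counted as moved when it shifted by more than 1 SD of the list between the L/L arrays. With the mean of the 3 L/L arrays as control it was -0.16 for sterol synthesis, -0.39 for fatty acid oxidation, 0.18 for MHC class II, 0.48 for p53 targets, 0.90 for regeneration, 0.91 for Paneth cells, -0.53 for retinoid handling, 0.27 for cytokines, 0.44 for myeloid cells, 0.33 for endothelium and 0.22 for adipocytes. With the L/L arrays of days 2 and 3 it was -0.11 for sterol synthesis, 0.068 for MHC class II, 0.45 for p53 targets, 0.85 for regeneration, 0.82 for Paneth cells, -0.58 for retinoid handling, 0.24 for cytokines, 0.37 for myeloid cells, 0.31 for endothelium and 0.042 for adipocytes. That control also reversed the median of lipid droplet genes (-0.0088), of fatty acid synthesis (0.018), Pla2g2a (-1.83) and Akp3 (-0.36), and the mean of 3 reversed Pla2g2a (-0.86). Medians within the range of the L/L pairs also changed sign against days 2 and 3, namely those of triglyceride synthesis and chylomicron assembly (-0.022), tuft cells (-0.035), NRF2 genes (-0.0044), phospholipases A2 (-0.060), glucocorticoid and fasting genes (-0.0028), mast cells (0.021), the proximal small intestine (-0.035) and all genes (-0.00050). With centred arrays the median was -0.44 for fatty acid oxidation, -0.42 for oxidative phosphorylation, -0.53 for the TCA cycle, 0.40 for p53 targets, 0.67 for regeneration, 0.25 for cytokines, 0.25 for immediate early genes and 0.45 for fibroblasts. With cyclic loess it was -0.32 for fatty acid oxidation, -0.43 for the TCA cycle and 0.48 for p53 targets. With the mean of all probe sets it was -0.41 for fatty acid oxidation, 0.59 for p53 targets, 0.21 for cytokines and 0.39 for fibroblasts, and with unique probe sets -0.39 for oxidative phosphorylation, -0.38 for the TCA cycle, 0.48 for p53 targets and 0.39 for cytokines. With an offset of 32 it was 0.42 for p53 targets, 0.95 for Paneth cells, 0.54 for myeloid cells and 0.35 for endothelium. Without the filter it was 0.54 for p53 targets and 0.18 for cytokines, and with the stricter filter 0.67 for regeneration.

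The count of genes higher at day 5 was 96 with an offset of 32 and 677 at 1.5-fold, and that of lower genes 404 at 1.5-fold. Under the other settings it was 119 to 198 higher and 79 to 139 lower. The test of day 5 against the earlier days made 0 calls as reported, without the filter and with robust moderation, but 81 with the mean of all probe sets, 14 with unique probe sets, 95 with the stricter filter, 209 with the offset, 7 with centring, 171 with cyclic loess, 110 with a trend and 160 as a slope over days. The cause was not tested. Leaving out day 2 or day 3 leaves no residual degrees of freedom, so it gives values only. Of 99 named genes at 2-fold or more, 73 stayed there against the L/L arrays of days 2 and 3. Signal near the threshold limits the 28 higher and 15 lower genes with a dim array, and 158 and 108 genes passed 2-fold once dim values were raised.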

Other observations

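Several programmes that could accompany tissue stress lay near the median of all genes at day 5. Genes of the unfolded protein response had a median of -0.05 over 26, circadian clock genes -0.01 over 17, glucocorticoid and fasting genes 0.02 over 23 and NRF2 antioxidant genes 0.05 over 18, and of these lists only the glucocorticoid one held a gene at 2-fold, G6pc, the last enzyme of glucose release, at -1.04. Against L/L of days 2 and 3 these medians were -0.068, -0.10, -0.0028 and -0.0044. Transcription factors of intestinal identity had a median of -0.0013 over 19, or -0.032 against L/L of days 2 and 3, with Nr5a2, a nuclear receptor of crypts, lowest at -0.94. Cldn2, a pore-forming claudin of crypts, read 917, 966 and 866 in L/L against 1235, 1612 and 1891 in KO on days 2, 3 and 5.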
